A study of Mus musculus with 6 samples.

Results

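Kv1 channels are voltage-gated potassium channels of axons and nerve terminals, and 10 genes that encode them or their closest partners were read in the dorsal hippocampus of mice after knockdown of the long non-coding RNA Snhg11. They were chosen by name out of the 55401 gene identifiers counted. They comprise the pore-forming alpha subunits Kcna1, Kcna2, Kcna3, Kcna4 and Kcna6 and the cytoplasmic beta subunits Kcnab1, Kcnab2 and Kcnab3. The secreted protein Lgi1 and the membrane protein Adam22 complete the list. The rule itself is a list of names, but the list was drawn up with earlier results of these data known. All 10 passed the filter on low counts.

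The RNA came from 6 wild type mice, of which 3 received Control-ASO and the other 3 Snhg11-ASO. An ASO (antisense oligonucleotide) is a short synthetic nucleic acid that binds a matching RNA and leads to its degradation. Both groups were WT littermates of the trisomic Ts65Dn line, on a mixed B6EiC3 background, about 4 months old, and received 50 μg of ASO in the dentate gyrus of each hemisphere. The dorsal hippocampus was collected 3 days later, so the injected dentate gyrus was sequenced together with the rest of the dorsal hippocampus. The comparison asks how the levels of these transcripts differ when Snhg11 is reduced.

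A Kv1 channel is built from several alpha subunits, of the same or of different genes, which open when the membrane is depolarized and let potassium leave the cell. Beta subunits bind the alpha subunits from inside, help them reach the axon and, in the case of Kcnab1, give them fast inactivation. Lgi1 is a protein secreted by neurons that binds the membrane protein Adam22, and this pair has been found with Kv1 channels at the axon initial segment and at terminals. Loss-of-function mutations of LGI1 cause an inherited temporal lobe epilepsy, and mutations of KCNA1 cause episodic ataxia.

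The alpha subunit genes resemble one another, which bears on whether their reads can be told apart. Each has a single coding exon. The stretch that codes for the pore loop is shown for all 5, since this is where the channels are most alike, from the GENCODE M21 transcripts (GRCm38). Capitals mark the 18 bases that code for the potassium selectivity filter. The stretches lie in the coding exons at chr6:126642204-126642263 on the minus strand (Kcna1), chr3:107105203-107105262 on the plus strand (Kcna2), chr3:107037590-107037649 on the plus strand (Kcna3), chr2:107296474-107296533 on the plus strand (Kcna4) and chr6:126738623-126738682 on the minus strand (Kcna6).
Kcna1: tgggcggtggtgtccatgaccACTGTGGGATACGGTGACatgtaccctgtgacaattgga
Kcna2: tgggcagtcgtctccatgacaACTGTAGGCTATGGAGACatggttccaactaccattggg
Kcna3: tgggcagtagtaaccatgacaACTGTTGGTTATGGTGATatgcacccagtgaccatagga
Kcna4: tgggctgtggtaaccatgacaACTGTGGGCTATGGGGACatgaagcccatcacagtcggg
Kcna6: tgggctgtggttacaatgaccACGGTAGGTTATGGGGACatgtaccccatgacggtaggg

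Even here the 10 pairs of genes differed at 11 to 18 of 60 bases, and the filter, which is the same protein sequence in all 5 genes, was coded by 5 different strings of bases. The second codon after the capitals, which sets how strongly the drug tetraethylammonium blocks the channel, had 4 different spellings in the 5 genes. Over the whole coding sequence the alpha genes were 72.1% to 78% identical, with identical runs of at most 17 to 31 bases in a pair. The 3 beta genes were 68.8% to 76.9% identical, with longest runs of 14 to 26 bases. The reads were 50 bases long, and no window of 50 bases was shared between any of the 10 genes. Outside the list, Kcna3 shared 6 windows with Kcna10 and Kcna6 shared 79, which is 1.33% of its windows, with Kcna5. Kcna2 shared 61 windows, 0.515% of its total, with 215 other genes. Lgi1 shared 10.3% of its windows with other genes, so that part of its reads may have been left out as mapping to several places.

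The Kv1 genes also lie side by side in the genome. Kcna3 and Kcna2 are neighbours on chromosome 3 with a gap of 63.1 kb between them, and Kcna1 and Kcna6 are neighbours on chromosome 6 with a gap of 61.9 kb. Kcna3 is the most compact of the 10, with a genomic span of 1.9 kb and no intron. Kcnab1 and Adam22 are the longest, with spans of 268.8 and 295.8 kb.

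The libraries held 28951250 to 43997537 read pairs counted on genes. Snhg11 was lower in every Snhg11-ASO library (65.4 to 139 CPM) than in any Control-ASO library (209 to 551 CPM), with a log2 fold change of -2.13 (standard error 0.43; edgeR adjusted p = 0.395). CPM are read pairs per 1000000 of the scaled library total over the genes tested. The library labelled Snhg11-ASO replicate 1 stood apart from the other 5, with Spearman correlations of 0.955 to 0.959 with them across genes, against 0.979 to 0.991 among the others. It was the lowest of the 6 libraries for 6 of the 10 Kv1 genes and the highest for Kcna1. Values of the 10 genes without it are given below where it changes a direction or moves a value by more than 1.5 times. Markers of neurons were present in all libraries, whereas the 3 markers of T cells together stayed between 0.0297 and 0.178 CPM.

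None of the 10 genes differed between the groups after correction for multiple testing. With edgeR (quasi-likelihood test, p-values adjusted after Benjamini and Hochberg over 19969 genes), 0 of 10 passed an adjusted p of 0.05, as did 0% of all genes tested. The same held for the 10 genes in DESeq2, where 1.35% of all genes tested passed. At an unadjusted p under 0.05, 1 of the 10 was lower in Snhg11-ASO, Kcna2, where 4.43% of all genes were lower at that level and 8.11% differed in either direction. The log2 fold change was below 0 for 9 of the 10 genes and above 0 for Kcna1, beside 48.3% of all genes below 0. The 9 include Kcnab2 at -0.0017 and Kcna4 at -0.03. Over 19 other ways of testing, the number below 0 was 6 to 9, with 6 when Control-ASO replicate 2 was left out. The median log2 fold change was -0.19 for the 10 genes and 0.0097 for all genes tested. The groups did not overlap for 2 of the 10 genes, Kcna2 and Adam22, both lower in Snhg11-ASO. Over all genes, 7.7% had groups apart with Snhg11-ASO lower, and 15.4% in either direction. In bulk tissue, fewer cells of a type and less RNA per cell cannot be told apart.

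Kcna2, which encodes a subunit of delayed rectifier channels along axons, had 210.1, 222 and 258 CPM in Control-ASO replicates 1, 2 and 3. In Snhg11-ASO replicates 1, 2 and 3 it had 197, 198 and 183 CPM. Every Snhg11-ASO library thus lay below every Control-ASO library, although the highest of the first and the lowest of the second were close. The mean was 229.9 ± 25.1 CPM (SD, n = 3) in Control-ASO and 193 ± 8.24 CPM (SD, n = 3) in Snhg11-ASO, which is 83.9% of the control mean. The log2 fold change was -0.25 (95% interval -0.50 to -0.0083, edgeR unadjusted p = 0.0445, adjusted p = 0.599). An exact permutation test of the CPM values gave p = 0.1, the smallest that 3 against 3 allow. With the replicate number as a block the unadjusted p from edgeR was 0.0692. Without Control-ASO replicate 3, the library with most Kcna2, the log2 fold change was -0.17 (edgeR unadjusted p = 0.138), and without Snhg11-ASO replicates 2 or 3 the unadjusted p was 0.0792 or 0.124.

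Kcna1, the alpha subunit altered in episodic ataxia, was the only member with a higher mean in Snhg11-ASO. Control-ASO replicates 1, 2 and 3 had 105, 116 and 99.4 CPM, and the Snhg11-ASO replicates 142, 105 and 91.5 CPM. The highest and the lowest of the 6 values were thus both from Snhg11-ASO, and the groups overlapped. The means were 107 ± 8.36 and 113 ± 26.1 CPM (SD, n = 3 each), and the log2 fold change was 0.08 (95% interval -0.31 to 0.48, edgeR adjusted p = 0.914). The direction turned without Snhg11-ASO replicate 1, with a log2 fold change of -0.12.

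Kcna6, whose product joins other alpha subunits in mixed channels, was even across the Control-ASO libraries, at 61.7, 56.5 and 61.1 CPM. In Snhg11-ASO it had 28.8, 58.6 and 51.9 CPM. Snhg11-ASO replicate 1 alone was far from the rest, at less than the level of any other library, and replicate 2 lay within the control range. The mean was 59.8 ± 2.83 CPM in Control-ASO and 46.4 ± 15.6 CPM in Snhg11-ASO (SD, n = 3 each). This gave a log2 fold change of -0.36 (95% interval -0.94 to 0.21, edgeR adjusted p = 0.734), and it was -0.11 without Snhg11-ASO replicate 1 and -0.57 without replicate 2. Kcna6 shares 39.6% of its exonic bases with Gm26673, an antisense gene on the opposite strand that held 12 to 62 counts per library. The share of Kcna6 pairs on the strand of the gene was 96.6% to 98.5% in the other 5 libraries and 90.7% in Snhg11-ASO replicate 1.

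Kcna4 encodes an alpha subunit whose own N-terminus inactivates the channel rapidly, giving A-type currents. It was counted at 73.4, 85.1 and 85.4 CPM in Control-ASO and at 69.1, 86.1 and 84.1 CPM in Snhg11-ASO. Replicate 1 was the lowest library in both groups, and the groups overlapped over nearly their whole range. Its log2 fold change was -0.03 (95% interval -0.31 to 0.25, edgeR adjusted p = 0.963), and it was 0.07 without Snhg11-ASO replicate 1 and 0.0069 and 0.0053 without Control-ASO replicates 2 and 3.

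Kcna3, best known as a potassium channel of T cells and microglia, was the least abundant of the alpha genes per kb of exon. Its levels were 9.14, 6.60 and 9.74 CPM in Control-ASO and 5.35, 7.25 and 6.53 CPM in Snhg11-ASO, from 204 to 328 read pairs per library. Control-ASO replicate 2 lay among the Snhg11-ASO values. Kcna3 had the largest fitted difference of the 10, with a log2 fold change of -0.41 (95% interval -0.91 to 0.08, edgeR adjusted p = 0.670). The summed level of 5 microglial markers was 160 to 278 CPM in Control-ASO and 74.6 to 256 CPM in Snhg11-ASO, with 4 of 5 below 0 by log2 fold change. That count rested on Snhg11-ASO replicate 1, without which 0 of 5 were below 0, with log2 fold changes from 0.03 for Csf1r to 0.53 for Tmem119. Snhg11-ASO replicate 1 held the lowest microglial sum and the lowest Kcna3. Control-ASO replicate 2, however, held the highest microglial sum, 278 CPM, and the lowest Kcna3 of the controls. Without Snhg11-ASO replicate 1 the log2 fold change of Kcna3 in edgeR was -0.30. The part of microglia in the Kcna3 values was not tested.

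**Figure D1:**
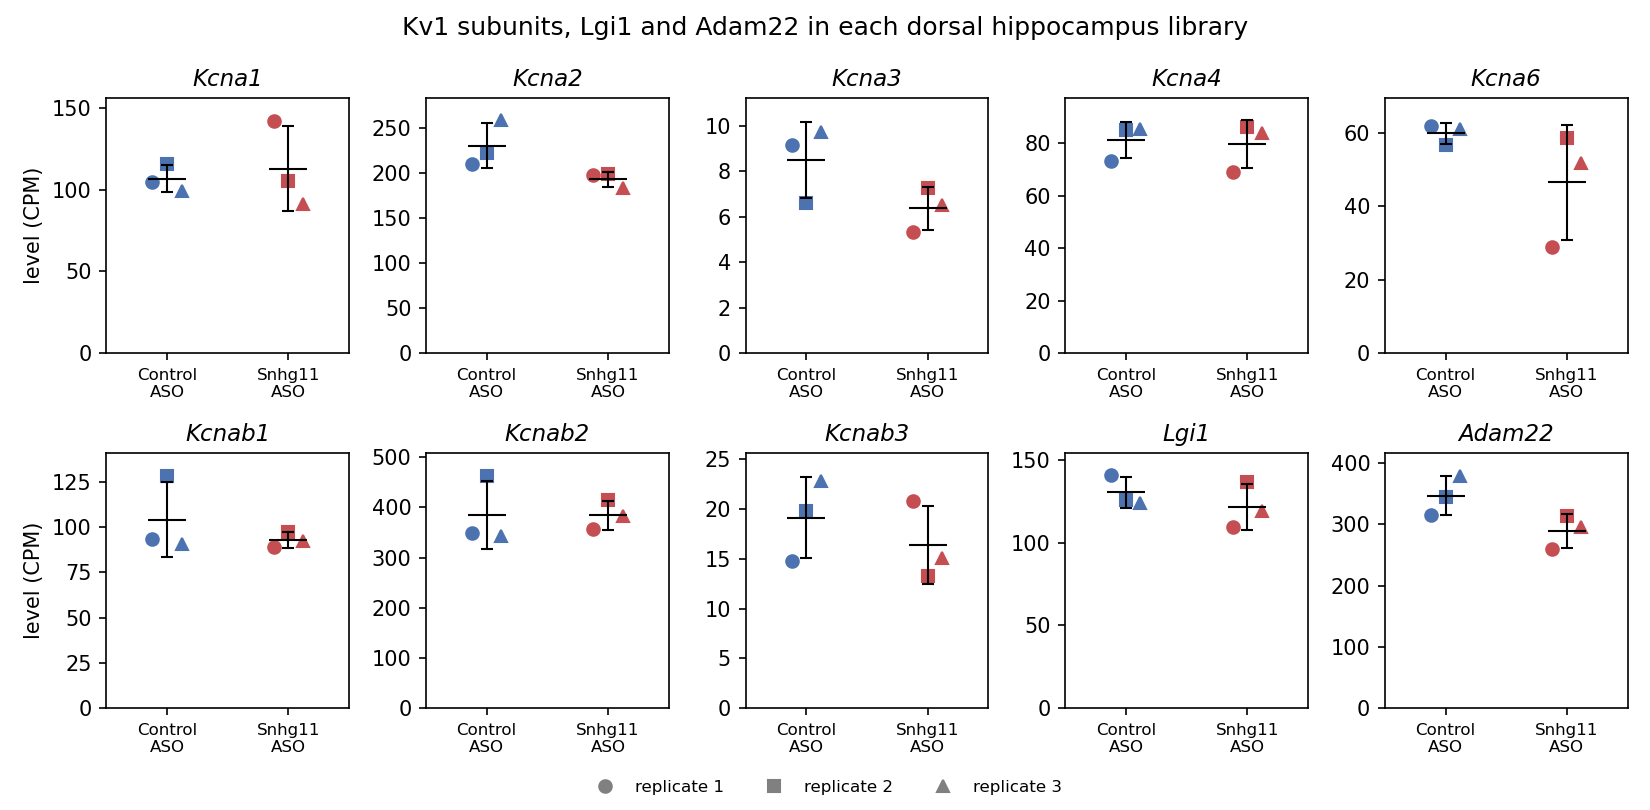
Level of each of the 10 genes (CPM, axis from 0) in the 3 Control-ASO (blue) and 3 Snhg11-ASO (red) libraries, with the marker shape giving the replicate number and the black bars the mean ± SD. The groups are apart for Kcna2 and Adam22 and overlap for the other 8 genes, and Kcna6 at 28.8 CPM in Snhg11-ASO replicate 1 is far from its other 5 values.

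Among the beta subunits, Kcnab2 was the most abundant per kb of exon, and its group means were nearly equal. It encodes the main beta subunit of brain Kv1 channels, which has the fold of an aldo-keto reductase. Its levels were 349.5, 463 and 342 CPM in Control-ASO and 357, 415 and 383 CPM in Snhg11-ASO, so that all 3 Snhg11-ASO values fell inside the control range. The means were 385 ± 67.9 and 385 ± 29.0 CPM (SD, n = 3 each). Its log2 fold change was -0.0017, with a 95% interval of -0.34 to 0.33 (edgeR adjusted p = 0.998). Without Snhg11-ASO replicate 1 it was 0.05.

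Kcnab1, whose product carries an inactivation domain, had 93.3, 128 and 90.9 CPM in Control-ASO and 88.9, 97.3 and 92.5 CPM in Snhg11-ASO. Control-ASO replicate 2 was high and the other 5 libraries were close together. The log2 fold change of -0.16 (95% interval -0.51 to 0.18, edgeR adjusted p = 0.787) became 0.01 without that library. Kcnab1 spans 268.8 kb, and its log2 fold change was -0.04 when the trend with genomic span was removed and -0.02 with the replicate block as well. The same library was the highest for Kcnab2, whose log2 fold change without it was 0.15.

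Kcnab3 was the rarest of the beta genes per kb of exon, with 14.8, 19.8 and 22.8 CPM in Control-ASO and 20.8, 13.3 and 15.1 CPM in Snhg11-ASO. The groups overlapped, with replicate 1 the lowest control and the highest Snhg11-ASO value. The means were 19.1 ± 4.04 and 16.4 ± 3.93 CPM (SD, n = 3 each), and the log2 fold change was -0.22 (95% interval -0.76 to 0.31, edgeR adjusted p = 0.818). Without Snhg11-ASO replicate 1 it was -0.43 (edgeR adjusted p = 0.513), without Control-ASO replicate 1 it was -0.39, and without Control-ASO replicate 3 or Snhg11-ASO replicate 2 it was -0.09 or -0.10.

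Adam22, the neuronal receptor of Lgi1, had 316, 345 and 379 CPM in Control-ASO and 259, 313 and 296 CPM in Snhg11-ASO. The groups did not overlap, but Snhg11-ASO replicate 2 and Control-ASO replicate 1 were nearly level. The mean was 346 ± 31.9 CPM in Control-ASO and 289 ± 27.5 CPM in Snhg11-ASO (SD, n = 3 each), 83.5% of the control mean. The log2 fold change was -0.26 (95% interval -0.53 to 0.0088, edgeR unadjusted p = 0.056, adjusted p = 0.618). With the replicate number as a block the unadjusted p from edgeR was 0.0312 and the adjusted p 0.548. Adam22 spans 295.8 kb, and when each library's trend with genomic span was removed its log2 fold change moved to -0.12 (edgeR adjusted p = 0.831). Kcna2, which spans 13.9 kb, moved the other way under that correction, to -0.31 (edgeR adjusted p = 0.615).

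Lgi1, its secreted partner, had 141, 126 and 124 CPM in Control-ASO and 109, 137 and 119 CPM in Snhg11-ASO. The groups overlapped, with Snhg11-ASO replicate 2 above 2 of the 3 controls. Its log2 fold change was -0.10 (95% interval -0.36 to 0.16, edgeR adjusted p = 0.837), and without Snhg11-ASO replicate 1 it was -0.03. Without Control-ASO replicate 1 it was -0.05, and without Snhg11-ASO replicate 2 it was -0.19.

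The promoters of Kcna2 and Adam22 are shown because these were the members whose groups were apart. They run from 250 bases before to 50 bases after the start of the RefSeq gene (GRCm38.p6). Capitals mark a GC box (GGGCGG on either strand), a short motif bound by Sp family factors. The Kcna2 window is chr3:107101317-107101616 on the plus strand, and the Adam22 window is chr5:8368111-8368410 on the minus strand, printed along the gene.
Kcna2: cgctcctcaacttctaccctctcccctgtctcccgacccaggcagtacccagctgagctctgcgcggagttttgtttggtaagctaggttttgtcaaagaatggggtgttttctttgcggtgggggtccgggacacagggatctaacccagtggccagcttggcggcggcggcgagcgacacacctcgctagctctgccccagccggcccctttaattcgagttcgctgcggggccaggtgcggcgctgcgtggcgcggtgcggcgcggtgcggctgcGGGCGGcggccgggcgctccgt
Adam22: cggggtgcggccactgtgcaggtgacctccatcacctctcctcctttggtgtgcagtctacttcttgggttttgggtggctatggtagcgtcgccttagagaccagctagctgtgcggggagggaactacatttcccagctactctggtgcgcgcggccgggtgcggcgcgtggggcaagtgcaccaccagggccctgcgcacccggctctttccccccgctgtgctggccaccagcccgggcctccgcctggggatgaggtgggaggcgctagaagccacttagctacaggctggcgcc

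The Kcna2 window held 1 GC box and the Adam22 window none, while their GC contents were alike, at 66.7% and 66.3%. The 8 members with an entry in this table had 12 promoters, of which 6 held a GC box, from Kcna2, Kcna3, Kcna4, Kcnab1, Kcnab2 and Lgi1. A GC box was found in 35.7% of all 32851 promoters listed. The median GC content of all promoters listed was 52.7%, and the 12 of the members ran from 36.7% (Kcnab1) to 75% (Kcna3). The core of the cyclic AMP response element (TGACGT) was in 2 of the 12, from Kcna6 and Kcnab2, beside 7.51% of all. The E-box CACGTG was in 2 of the 12, both from Kcnab1, beside 7.15% of all. The full cyclic AMP response element (TGACGTCA), which contains this core, was in 0 of 12 and in 1.79% of all. These matches describe letters in a window and do not show a site in use.

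Levels of different genes were compared as CPM per kb of merged exons. On this scale, the Control-ASO mean of Kcnab2 was 69.0, well above the 24.1 of Adam22, 22.3 of Kcna1 and 19.3 of Kcna2. Then came Kcna4 at 16.8, Kcnab1 at 12.1, Lgi1 at 11.5, Kcna6 at 10.1, Kcnab3 at 6.68 and Kcna3 at 4.47 CPM per kb. Neighbours in this order whose control values overlapped were Adam22 and Kcna1, Kcna1 and Kcna2, Kcna2 and Kcna4, and Kcnab1 and Lgi1. All other neighbours were apart.

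The makeup of the Kv1 pool was read from the same scale as the share of each alpha gene in the summed level of the 5, which does not depend on how the libraries were scaled. Kcna2 gave 25.2%, 25.3% and 28.7% of the alpha pool in Control-ASO, against 24.3%, 23.7% and 24.0% in Snhg11-ASO. All Snhg11-ASO shares were thus below all control shares. The mean share was 26.4% ± 1.98 in Control-ASO and 24.0% ± 0.27 in Snhg11-ASO (SD, n = 3 each; exact permutation test, two-sided p = 0.1, adjusted p = 0.45 over the 9 shares and ratios compared). Kcna1 made up 27.5% to 33.0% of the pool in Control-ASO and 29.9% to 43.6% in Snhg11-ASO, the highest value being that of replicate 1. Kcna6 made up 12.9% to 14.8% in Control-ASO, against 7.11%, 14.0% and 13.6% in Snhg11-ASO. The mean share of Kcna1 was 4.29 percentage points higher in Snhg11-ASO and that of Kcna6 2.20 points lower, and without Snhg11-ASO replicate 1 these differences were -0.016 and 0.037 points.

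Which alpha gene leads depends on the length used. The merged exons of Kcna2 (11906 bases) are far longer than its coding sequence (1497 bases), and those of Kcna1 (4780 bases) less so. In a second version, the same counts over all exons were divided by the coding length alone. Kcna2 then held 47.9% to 52.6% of the alpha pool in Control-ASO and 45.9% to 46.4% in Snhg11-ASO. It was ahead of Kcna1, with 20.4% to 25.2% and 23.4% to 33.7%. The mean Kcna2 share in Snhg11-ASO minus that in Control-ASO was -2.41 percentage points when levels were taken per kb of exon. With levels per kb of coding length it was -3.25 points. Both values rest on the same counts, so the second is not a separate check. With levels per kb of exon, the difference was -1.27 points without Control-ASO replicate 3.

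In the beta pool, Kcnab2 contributed 76.8% to 79.6% in Control-ASO and 78.4% to 82.3% in Snhg11-ASO. The Kcnab1 share was 13.2% to 14.2% in Control-ASO and 12.5% to 12.7% in Snhg11-ASO, so the groups were apart (exact permutation test, two-sided p = 0.1, adjusted p = 0.45). Kcnab3 supplied the rest, 6.57% to 9.97% and 5.14% to 8.91%. The summed beta level was 1.12, 1.43 and 1.06 times the summed alpha level in Control-ASO and 1.20, 1.29 and 1.32 times in Snhg11-ASO, with groups that overlapped (exact permutation test, two-sided p = 0.7, adjusted p = 0.7).

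**Figure D2:**
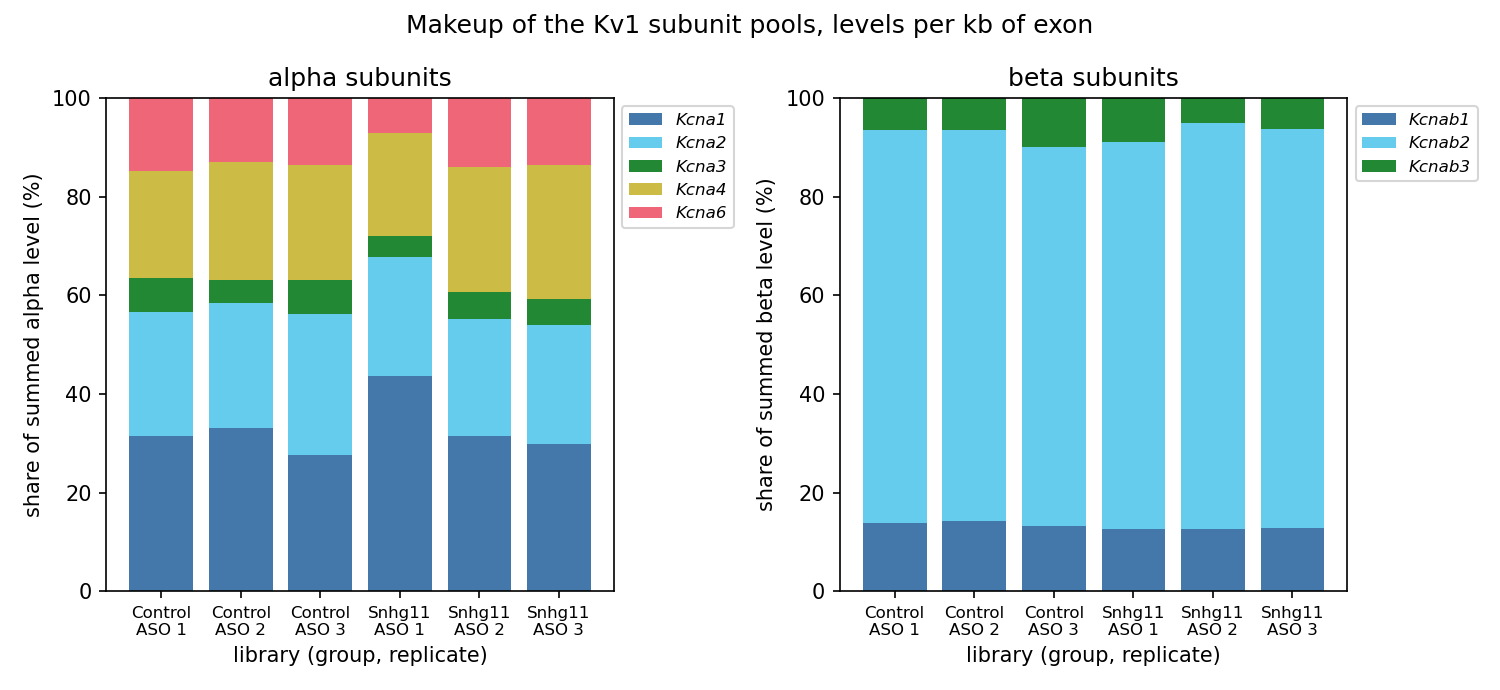
Share of each alpha gene (left) and beta gene (right) in the summed level of its pool (%, levels as CPM per kb of merged exons) in the 6 libraries, as stacked bars that add up to 100%. Kcna1 reaches 43.6% and Kcna6 drops to 7.11% in Snhg11-ASO replicate 1, whereas the Kcna2 share stays between 23.7% and 28.7% in all libraries.

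The proteins that hold Kv1 channels in place were read as a list of 15 further genes, which also held the remaining Kv1 alpha genes and the relatives of Lgi1 and Adam22. Of these, 13 could be tested. Kcna7 had 0 counts in every library and Kcna10 at most 3, and Kcna5 had 20 to 57. None of the 13 passed an adjusted p of 0.05 in edgeR. At an unadjusted p under 0.05, 4 of 13 were lower in Snhg11-ASO and 0 higher, beside 4.43% of all genes that were lower at that level. The groups were apart for the same 4 genes, beside 7.7% of all genes apart with Snhg11-ASO lower. The median log2 fold change of the 13 was -0.13, with 9 below and 4 above 0. Without Snhg11-ASO replicate 1, Cntn2, Lgi3 and Dlg3 turned to 0.12, 0.10 and 0.01, and Adam11 and Kcna5 to -0.10 and -0.15.

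Cntnap2 (Caspr2), which anchors Kv1 channels beside the node of Ranvier, had 151, 144 and 113 CPM in Control-ASO and 106, 97.3 and 91.1 CPM in Snhg11-ASO. All 3 Snhg11-ASO values were below all controls, with a log2 fold change of -0.47 (standard error 0.13, edgeR unadjusted p = 0.00845, adjusted p = 0.497). Its binding partner Cntn2 had a log2 fold change of -0.01 (standard error 0.17, edgeR adjusted p = 0.987). Among the membrane-associated guanylate kinases, scaffolds that bind the C-terminus of Kv1 alpha subunits, Dlg2 (PSD-93) had a log2 fold change of -0.37 (standard error 0.11, edgeR unadjusted p = 0.0115) and Dlg1 (SAP97) of -0.36 (standard error 0.15, edgeR unadjusted p = 0.0421). The unadjusted p of Dlg1 in edgeR was 0.0531 with the replicate block and 0.0508 to 0.103 when Control-ASO replicate 3 or any single Snhg11-ASO replicate was left out, and its log2 fold change was -0.19 without Control-ASO replicate 3. Dlg4 (PSD-95) had a log2 fold change of 0.09 (standard error 0.11, edgeR adjusted p = 0.838). Lgi2, a relative of Lgi1, had the largest difference of the list, at -0.70 (standard error 0.21, edgeR unadjusted p = 0.0131, adjusted p = 0.527).

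Cntnap2 and Dlg2 are among the longest of these genes, with spans of 2245 and 1973 kb. When each library's trend with genomic span was removed, their log2 fold changes were -0.01 and 0.06, while that of Lgi2, which spans 32.9 kb, was -0.74 and that of Dlg1, which spans 212 kb, was -0.26. One partner gene, Lgi2, then had an unadjusted p under 0.05.

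**Figure D3:**
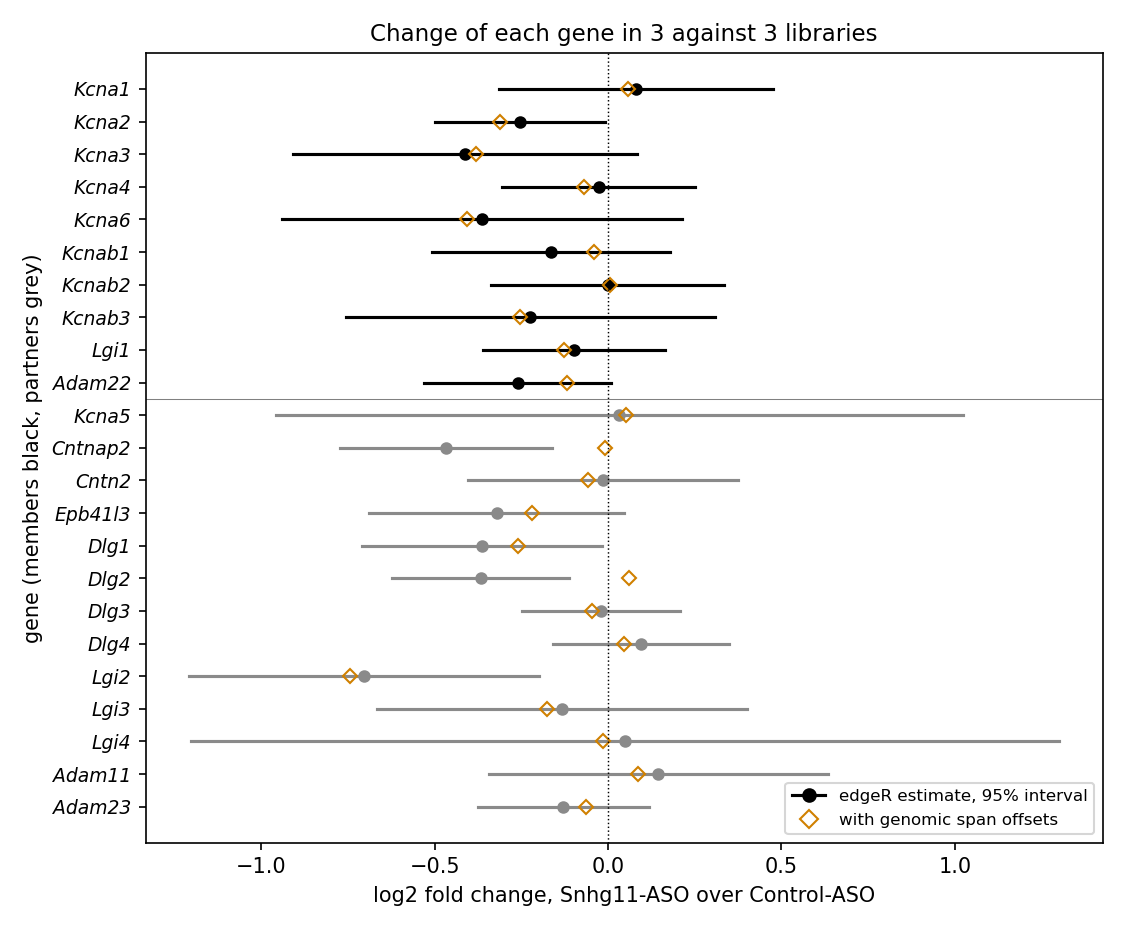
Log2 fold change of Snhg11-ASO over Control-ASO for the 10 members (black) and the 13 tested partner genes (grey), with dots for the edgeR estimates, lines for their 95% intervals and open diamonds for the estimate after each library's trend with genomic span was removed. The interval of Kcna2 ends just below 0 and that of Adam22 just above it, and the diamonds of Cntnap2 and Dlg2 lie near 0, far to the right of their dots.

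Kv1 genes are expressed by many neurons, and Kcna1 and Kcna2 strongly by fast-spiking interneurons, so neuronal markers were read in the same libraries. All 6 markers of inhibitory interneurons had a log2 fold change below 0, with a median of -0.28, and their summed level was 411 to 453 CPM in Control-ASO and 340 to 388 CPM in Snhg11-ASO. The groups were apart for this sum and for 3 of the 6 markers, as they were for Kcna2 and Adam22 and for 7.7% of all genes with Snhg11-ASO lower. They overlapped for Kcna1, whose log2 fold change was 0.08, and -0.12 without Snhg11-ASO replicate 1. None of the 6 passed an adjusted p of 0.05 in edgeR. Sst and Vip had unadjusted p-values of 0.0216 and 0.0455 in edgeR, beside 4.43% of all genes lower at an unadjusted p under 0.05. Vip had 13.7, 11.4 and 23.3 CPM in Control-ASO and 10.4, 10.1 and 10.6 CPM in Snhg11-ASO. Control-ASO replicate 3 was thus far above all others. For Pvalb the groups overlapped, with a log2 fold change of -0.31 (edgeR unadjusted p = 0.0832). All 6 interneuron markers were also below 0 without Snhg11-ASO replicate 1. The 5 general neuronal markers were below 0 as well, but Map2 and Nefl turned to 0.06 and 0.08 without that library. Their sums were of 4072 to 4397 CPM in Control-ASO and 3440 to 4225 CPM in Snhg11-ASO. Of these 5, Syt1 had groups apart, with a log2 fold change of -0.32 (edgeR unadjusted p = 0.0135). Granule cell markers summed to 169 to 213 and 204 to 270 CPM, and pyramidal cell markers to 171 to 250 and 212 to 256 CPM. By log2 fold change, 3 of 4 granule cell markers and 4 of 5 pyramidal cell markers were above 0. Among the latter, Wfs1 was at 0.40 (edgeR unadjusted p = 0.0311), with groups that overlapped. The part of these cell types in the Kcna1, Kcna2 and Adam22 values was not tested.

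Glial and other markers varied between libraries of both groups. The oligodendrocyte sum was 1433 to 2644 CPM in Control-ASO and 1578 to 3278 CPM in Snhg11-ASO, the astrocyte sum 1130 to 3016 and 1493 to 3578 CPM, the endothelial sum 70.7 to 95.6 and 74.9 to 123 CPM, and the choroid plexus sum 35.9 to 1882 and 65.6 to 1287 CPM. None of the marker genes that could be tested passed an adjusted p of 0.05 in edgeR, and the T cell markers were too low to test.

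Across 19 other ways of testing the same counts, 0 of the 10 members passed an adjusted p of 0.05 in any. Outside DESeq2, however, 0 of all genes passed in these settings, apart from 2 of 20226 in edgeR without Snhg11-ASO replicate 1. Those settings could thus hardly call a member. In the DESeq2 fits, 216 to 346 of all genes passed. Kcna2, Kcna3, Kcna6, Kcnab3, Lgi1 and Adam22 had a log2 fold change below 0 in all 19. Kcna2 ranged from -0.32 to -0.17 and had an unadjusted p under 0.05 in 11 of the 19. Adam22 ranged from -0.33 to -0.12 and had an unadjusted p under 0.05 in 2 of the 19. The signs of Kcna1, Kcna4, Kcnab1 and Kcnab2 were not the same in all settings.

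**Figure D4:**
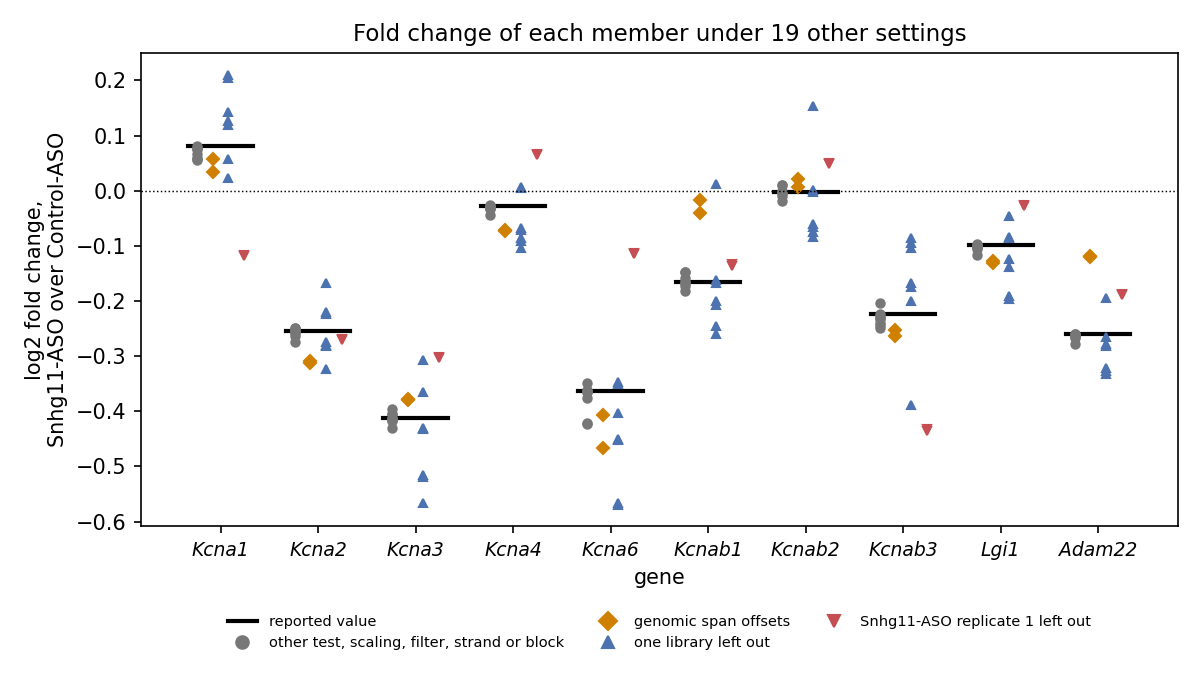
Log2 fold change of each member as reported (black line) and in 19 other settings, namely other tests, scalings, filters, the strand or the replicate block (grey), genomic span offsets (orange), leaving out one library (blue) and leaving out Snhg11-ASO replicate 1 (red). Kcna2 and Adam22 stay below 0 in every setting, whereas Kcna1 goes from 0.08 to -0.12 and Kcna6 from -0.36 to -0.11 without Snhg11-ASO replicate 1.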

How the data were processed

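Ribo-depleted RNA of 6 dorsal hippocampus samples was sequenced as paired reads of 50 bases. The authors aligned them with STAR 2.5.2a to mm10 (GRCm38) and deposited, per gene, the raw counts of read pairs on both strands and on each strand, not normalized. Their methods name Rsubread and DESeq2 and remove 1 Snhg11-ASO sample that is not named, so all 6 were kept here and each was left out in turn. The annotation release is not given in the sources used here. Summary lines that name no gene held 43.5% to 51.4% of the pairs and were left out. STAR counts no pair that maps to several places.

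Counts of the reverse strand were used, since 96.2% to 96.8% of the pairs fell there. Names and positions are from GENCODE M21, which matched 55141 of 55401 identifiers. The filter on low counts was filterByExpr (minimum count 10), TMM factors scaled the libraries, and the test of Snhg11-ASO against Control-ASO was the quasi-likelihood test of edgeR (R 4.3.3, edgeR 4.0.16), with Benjamini-Hochberg adjustment at 0.05 over all 19969 genes tested. Standard errors are the absolute log2 fold change over the square root of F, and 95% intervals use the t quantile. Nothing says how the mice were assigned to replicate numbers. In edgeR the p-values set the group difference against the spread between these samples, moderated over all genes. Tests were tried on simulated data first.

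Replicate numbers recur in both groups. After the group means were removed, samples with number 1, 2 or 3 correlated across groups at 0.297, 0.179 and 0.103. Each exceeds 0.1, so a block on the replicate number was fitted as an alternative. The main test, its intervals and the exact tests do not use this pairing. The pairing was read from the values, and Control-ASO replicate 2 correlated slightly better with Snhg11-ASO replicate 3 (0.188). Alternatives were DESeq2 1.42.0 (with all samples and without each Snhg11-ASO sample), limma-voom (limma 3.58.1), DESeq2 size factors, upper-quartile factors, both strands, no filter, the replicate block, a filter at a mean of 10 counts, genomic span offsets (loess, span 0.5) with and without the block, and leaving out each sample. Named genes were all members, Snhg11, the partners Cntnap2, Cntn2 and Dlg4, and up to 4 other partners with the smallest unadjusted p under 0.05. Kcna5, Kcna7, Kcna10, Lgi3, Dlg3 and Adam11 were named after their values were seen. The members, lists and motifs were chosen with earlier results of these data known.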

Additional observations from a re-analysis of the deposited data

How the results depend on the processing

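With 3 mice a group an exact test cannot go below p = 0.1. Kcna3, with 204 to 328 read pairs a library, is the member with the fewest counts. Its log2 fold change had a standard error of 0.210, below the 0.244 of Kcna6 and the 0.225 of Kcnab3. Over 19 alternatives 0 of the 10 members passed an adjusted p of 0.05, but outside DESeq2 at most 2 of all genes passed in any. The number at an unadjusted p under 0.05, 1 as reported, was 0 in DESeq2. In DESeq2 it was 2 without Snhg11-ASO replicate 1 (Kcna2 and Kcnab3) and 0 without Snhg11-ASO replicate 3. When edgeR left out 1 library it was 0 to 2. It was 0 without Control-ASO replicate 3 and without Snhg11-ASO replicates 2 or 3, and 2 without Control-ASO replicate 1. Where it was 1, the gene was not always Kcna2. It was Adam22 with the replicate block, Kcna3 in edgeR without Control-ASO replicate 2 and Kcna6 in DESeq2 without Snhg11-ASO replicate 2. Over all genes the number at that level ran from 900 of 20640 without Control-ASO replicate 1 to 2295 of 36214 without a filter. Snhg11 passed the adjusted threshold in the DESeq2 fits only, with log2 fold changes of -2.13 with all samples and -2.56, -1.95 and -1.97 without Snhg11-ASO replicates 1, 2 and 3. For the partner genes, 1 passed in DESeq2 without Snhg11-ASO replicate 1 (Cntnap2, adjusted p = 0.025) and 1 without Snhg11-ASO replicate 2 (Dlg2, adjusted p = 0.0414), and 1 was at an unadjusted p under 0.05 with genomic span offsets, with or without the block, against 4 as reported. The replicate block changed no adjusted call, and moved the unadjusted p in edgeR to 0.0692 for Kcna2, 0.0312 for Adam22 and 0.0531 for Dlg1.

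Signs turned as follows, and the cause was not tested. Without Snhg11-ASO replicate 1, Kcna1 was -0.117 in edgeR and -0.119 in DESeq2, Kcna4 was 0.0668 and 0.0645, Kcnab2 was 0.0504 and 0.0483, and Cntn2 was 0.115 and 0.114. Without Control-ASO replicate 2, Kcna4 was 0.00686, Kcnab1 0.012, Kcnab2 0.153 and Cntn2 0.099. Kcna4 was 0.00526 without Control-ASO replicate 3, and Kcnab2 was 0.00137 without Snhg11-ASO replicate 3, 0.00951 in limma-voom, 0.00976 with the replicate block, 0.00591 with genomic span offsets and 0.0208 with both. Dlg2 was 0.0614 with genomic span offsets and 0.0615 with the block as well. When 1 library was left out, the differences in share ran from -3.02 to -1.27 percentage points for Kcna2, from -0.0159 to 6.83 for Kcna1, from -3.43 to 0.0366 for Kcna6 and from -2.03 to 0.177 for Kcnab3, and the difference in the beta to alpha ratio from -0.00885 to 0.176. Leaving out 1 library in edgeR gave log2 fold changes up to 0.211 for Kcna1 and down to -0.104 for Kcna4, -0.259 for Kcnab1, -0.0847 for Kcnab2 and -0.164 for Cntn2. The turned shares were those without Snhg11-ASO replicate 1 for Kcna1 and Kcna6 and without Control-ASO replicate 3 for Kcnab3 and the ratio.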
